A study of Mus musculus with 12 samples.

Results

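Microglia of mice in the chronic phase of an induced neuroinflammatory disease were compared with microglia of control mice across all genes. The comparison takes the 3 libraries whose disease phase is given as chronic and the 3 given as control, which makes 6 of the 12 libraries of the series. The other 6 libraries, 3 of the acute phase and 3 of remission, entered the model that estimates the spread between replicates, and the remission libraries were also set against the chronic ones. All mice were of the Biozzi ABH strain, an inbred strain that takes a relapsing course after immunisation. The diseased mice had chronic-relapsing experimental autoimmune encephalomyelitis, written crEAE in the labels and EAE here, in which immunisation against nervous tissue antigen leads to T cell attack on myelin. Microglia were taken from the spinal cord by flow cytometry as CD11b+ cells with intermediate CD45 and no Ly-6C. The design text gives 3 mice per group. The sources used here do not state ages, the immunising antigen or what the control mice received, and the labels do not say that a library is 1 mouse. Where libraries of a group share a source, p-values measure only the spread between these libraries. Replicate numbers follow the order of deposit and pair no libraries.

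Microglia are the resident macrophages of the brain and spinal cord. In the healthy tissue they hold a homeostatic programme that depends on transforming growth factor beta and includes purinergic and chemokine receptors used for surveillance. In demyelination and neurodegeneration, microglia are known to lower these genes and to raise a damage-associated programme of lysosomal, lipid-handling and phagocytic genes, which depends in part on the receptor TREM2 and on Apoe. T cells that enter the cord release interferon gamma, a cytokine known to raise MHC class I and class II genes through IRF1, NLRC5 and CIITA, among other factors.

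Levels are given as CPM, the counts of a gene scaled to a common library size, after scaling each library for its composition, and differences as log2 fold changes with their standard errors (SE). A gene is called where its Benjamini-Hochberg adjusted p in edgeR's quasi-likelihood test is under 0.05, and rose or fell is written only of called genes. Libraries held 4129440 to 5712376 counts, but the 6 features with the most counts (Lars2, Mir6236, CT010467.1 and the predicted genes Gm15564, Gm23935 and Gm26917) took 48.3% to 56.2% of each control library and 56.4% to 62.7% of each chronic one, which left 1491413 to 2496096 counts for the remaining nuclear genes. Mitochondrially encoded genes took 1.92% to 2.29% of control and 3.02% to 4.36% of chronic libraries. The first principal component, with 56.1% of the variance, placed the acute libraries at 84.8 to 103, the control libraries at -57.7 to -53.7 and the chronic libraries at -20.2 to -2.17. On the second, with 12.6%, control libraries lay at -38.0 to -34.8 and chronic libraries at 30.2 to 42.0. Genes of the sort were measured first. Ptprc, which encodes CD45, stood at 463, 401 and 400.1 CPM in control and 329.8, 399.6 and 403 CPM in chronic libraries (adjusted p 0.482). Itgam, which encodes CD11b, stood at 137, 115 and 143 and 161, 135 and 229.5 CPM (adjusted p 0.229). Neither was called. Ly6c2, one of the genes for Ly-6C, was at 0 in all control libraries and at 0, 0.36 and 0.255 CPM in the chronic ones, while its neighbour Ly6c1 was at 0 in all 6 libraries; near-identical copies make Ly6 values uncertain. The microglial marker P2ry12 was present in all 6 libraries, at 238 CPM or more.

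Markers of other cells that the gate could hold were low or moved in both directions. The summed level of 17 monocyte markers was 8.96 to 42.9 CPM in control and 14.6 to 35.5 CPM in chronic libraries, against 1619.6 to 2465 CPM in the acute ones. Of 15 tested, Nr4a1 rose and Ccr2 fell, and S100a4 and F10 were at 0 in all chronic libraries. The call of Ccr2 ended against 1.5-fold, by limma-voom and without control replicates 1 or 3 or chronic replicates 1, 2 or 3 (adjusted p 0.0549 to 0.114), and its adjusted p ran from 0.00217 to 0.257 over the alternatives. T and NK cell markers summed to 5.18 to 9.46 CPM and 5.76 to 6.81 CPM, none of 9 tested was called, and Cd3e, Trac, Trbc1, Trbc2, Nkg7, Gzma and Gzmb were at 0 in the chronic libraries. Among 11 neutrophil markers tested none was called; their sum, 348 to 457 CPM and 302 to 358 CPM, was nearly all Csf3r (379, 348 and 456 against 324, 358 and 289.7 CPM), and Retnlg, Elane and Mpo were at 0 in chronic libraries. B and plasma cell markers summed to 132 to 195 CPM and 142 to 169.8 CPM with 1 of 5 higher, the inhibitory receptor Cd22. Border macrophage markers (90.8 to 127 CPM and 93.3 to 210.0 CPM) were nearly all Stab1, with Lyve1 and Pf4 at 0. In some of the lists more markers had no count in control than in chronic libraries. This held for 7 against 3 of 17 monocyte and 13 against 9 of 19 T and NK cell markers. It also held for 9 against 3 of 13 neutrophil and 6 against 4 of 14 B and plasma cell markers. It did not hold for border macrophage (3 against 3), dendritic cell (2 against 2) and neuronal markers (0 against 0). Nor did it hold for oligodendrocyte (0 against 4) and vascular markers (5 against 6).

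In the tissue around microglia, oligodendrocyte lineage markers summed to 91.7 to 114 CPM in control and 88.8 to 114 CPM in chronic libraries, and 1 of 12 tested was called. This was Cspg4, the NG2 proteoglycan of oligodendrocyte precursors and pericytes, at 0.142, 0.35 and 0 against 29.5, 20.2 and 4.08 CPM (108-fold higher over pooled counts, exact 95% counting interval 36.4 to 525, adjusted p 0.00378), while Pdgfra, Sox10 and Olig2 were at 0 in all chronic libraries. Of 7 astrocyte markers tested 2 rose, Aldh1l1 and the glutamate transporter Slc1a3 (sum 63.3 to 80.1 CPM against 116 to 205 CPM), and Gfap had a mean of 6.78 CPM in chronic libraries. Of 4 vascular markers tested the VEGF receptors Flt1 and Kdr rose and Pecam1 fell, with Cldn5, Tek and Ly6c1 at 0 in all 6 libraries. The call of Kdr ended against 1.5-fold, with library totals alone and without control replicates 1, 2 or 3 or chronic replicates 2 or 3 (adjusted p 0.0553 to 0.205), and its adjusted p ran from 0.0153 to 0.306 over the alternatives. None of 5 neuronal markers tested was called (14 to 20.9 CPM against 6.36 to 15.6 CPM), nor any of 3 erythroid ones (1.08 to 3.13 CPM against 2.7 to 4.99 CPM). Dendritic cell markers fell in 4 of 8, namely Siglech, Fscn1, Irf4 and Zbtb46, against 5.17% lower among all genes tested. Siglech and Fscn1 had 344 and 184 CPM on average in control and 160.5 and 79.5 CPM in chronic libraries. Siglech is also a member of the list of homeostatic microglial genes, so its fall is no sign of dendritic cells. The call of Zbtb46 ended against 1.5-fold, with only the 6 libraries compared, by DESeq2 and without control replicates 1, 2 or 3 or chronic replicates 1, 2 or 3 (adjusted p 0.052 to 0.246), and its adjusted p ran from 0.00375 to 0.659 over the alternatives. In bulk RNA, fewer cells of a type and less RNA per cell cannot be told apart, and this holds for every fall below.

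Of 12545 genes tested, 1848 were called between chronic and control microglia (14.7% of those tested). 1200 rose (9.57%) and 648 fell (5.17%), and all genes tested had a median log2 fold change of -0.01. These shares are the background for every list count between chronic and control microglia given here. Of the genes that rose, 746 did so by more than 2-fold, as did 249 of those that fell. In 1802 of the called genes no chronic library overlapped any control library. The same was not counted over all genes tested, so this number adds no support to the calls. Since most called genes showed it, a lack of overlap stated for single called genes below adds none either. Protein-coding genes made up 1124 of the increases and 573 of the decreases. The split between directions depended on scaling. With library totals alone, 3241 genes were called, 703 higher and 2538 lower, and the median over all genes moved to -0.37; increases were then 21.7% of calls, against 64.9% with composition scaling. Changes below are relative to the composition-scaled median. Against a 1.5-fold change in place of none, 680 genes passed, 525 higher and 155 lower. Without control replicate 2, the call count was 1216, with 832 higher and 384 lower.

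**Figure D1:**
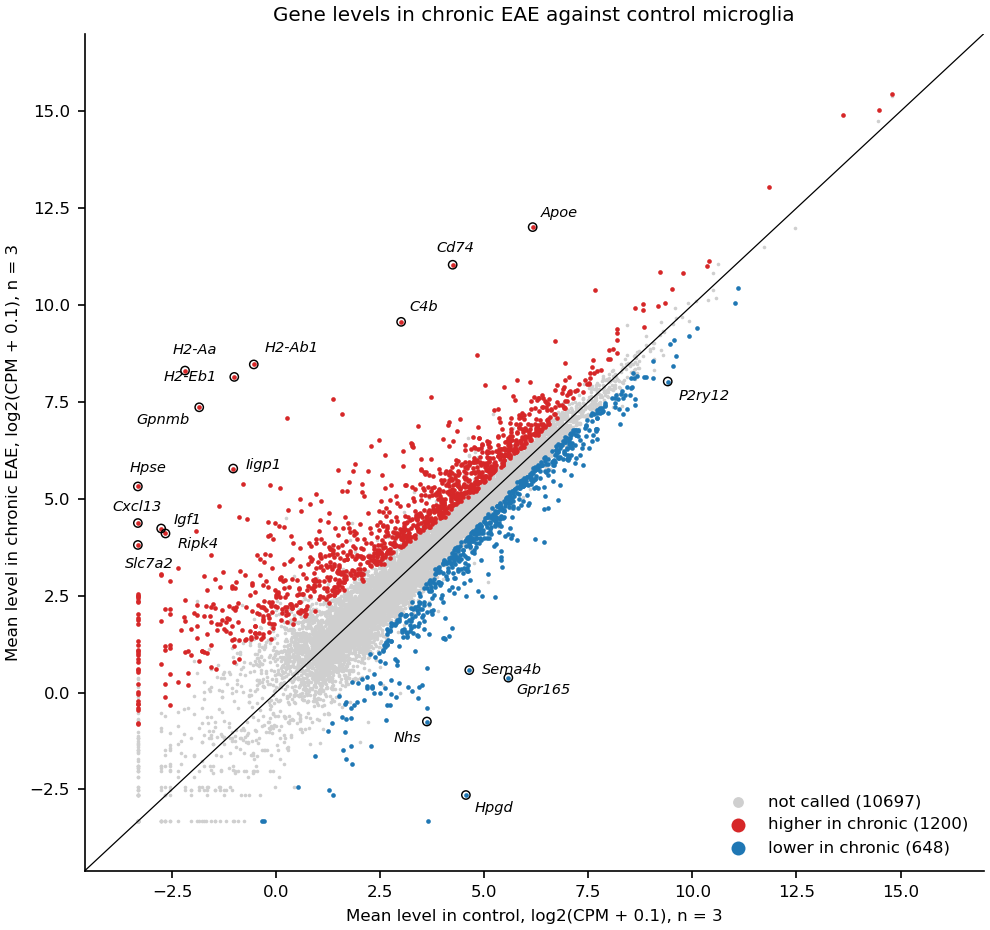
Mean level of each tested gene in chronic libraries (vertical axis, log2 of CPM plus 0.1) against its mean in control libraries (horizontal axis, same scale), n = 3 libraries each; coloured points are called genes, separately for higher and lower, and the line marks equal levels. MHC class II genes, Gpnmb, Hpse and Cxcl13 lie far above the line from near 0 in control, and Hpgd, Gpr165 and Sema4b lie far below it.

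The largest increases were in genes almost absent from control microglia. They belong to antigen presentation (H2-Aa, H2-Eb1, H2-Ab1), tissue remodelling and growth (Hpse, Gpnmb, Igf1), chemoattraction (Cxcl13), amino acid transport (Slc7a2), kinase signalling (Ripk4) and the interferon response (Iigp1). All 10 kept their call without any 1 library and under every alternative run. Positions are on GRCm38. Hpse, heparanase (ENSMUSG00000035273, chromosome 5, 100679484 to 100719716), which cleaves heparan sulfate chains of the extracellular matrix, stood at 0, 0 and 0 CPM in control and 53.6, 40.3 and 25.5 CPM in chronic libraries (at least 234-fold higher against the floor, adjusted p 8e-09). The floor is what 3 counts over the 3 control libraries give, 0.173 CPM. Gpnmb, a transmembrane glycoprotein of lysosome-rich phagocytes (ENSMUSG00000029816, chromosome 6, 49036546 to 49070929), stood at 0.142, 0.175 and 0.216 CPM in control and 259.9, 152 and 81.4 CPM in chronic libraries (962-fold higher over pooled counts, exact 95% counting interval 329 to 4669, adjusted p 9.77e-05). Cxcl13, the chemokine that draws B cells through CXCR5 (ENSMUSG00000023078, chromosome 5, 95956951 to 95961068), stood at 0, 0 and 0 CPM in control and 26.1, 17.5 and 18.4 CPM in chronic libraries (at least 118-fold higher against the floor, adjusted p 8e-09). Control libraries held 0 counts of Hpse and Cxcl13, and every chronic library held both. Igf1, insulin-like growth factor 1 (ENSMUSG00000020053, chromosome 10, 87858265 to 87937042), stood at 0.142, 0 and 0 CPM in control and 20.9, 23.8 and 11.5 CPM in chronic libraries (337-fold higher over pooled counts, exact 95% counting interval 59.9 to 13343, adjusted p 6.74e-08). Slc7a2, a transporter of arginine, lysine and ornithine (ENSMUSG00000031596, chromosome 8, 40862396 to 40922308), stood at 0, 0 and 0 CPM in control and 18.2, 17.5 and 6.12 CPM in chronic libraries (at least 83.8-fold higher against the floor, adjusted p 0.00153). Ripk4, a serine/threonine kinase of the RIP family (ENSMUSG00000005251, chromosome 16, 97741933 to 97763787), stood at 0, 0.175 and 0 CPM in control and 24.7, 17.6 and 8.93 CPM in chronic libraries (303-fold higher over pooled counts, exact 95% counting interval 53.8 to 12009, adjusted p 8.07e-07). Chronic replicate 3 was the lowest of its group for Igf1, Slc7a2 and Ripk4. It was still above all control libraries, which the rule that named the 10 largest increases required. Iigp1, an interferon-inducible GTPase that acts on vacuoles of intracellular pathogens (ENSMUSG00000054072, chromosome 18, 60376027 to 60392634), stood at 0.427, 0.526 and 0.216 CPM in control and 17.7, 49.7 and 97.2 CPM in chronic libraries (log2 fold change 6.99 ± 0.85 SE, adjusted p 0.000616). In this gene chronic replicate 3 was the highest of its group.

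The largest decreases were in genes of lipid mediator breakdown, potassium currents, matrix and guidance. Hpgd, which oxidises and inactivates prostaglandins (ENSMUSG00000031613, chromosome 8, 56294585 to 56321043), stood at 21.8, 26.6 and 22 CPM in control and 0, 0.18 and 0 CPM in chronic libraries (325-fold lower over pooled counts, exact 95% counting interval 58.1 to 12879, adjusted p 2.68e-08). Gpr165, an orphan G protein-coupled receptor (ENSMUSG00000031210, chromosome X, 96713441 to 96719388), stood at 49.4, 51 and 42.7 CPM in control and 0, 2.34 and 1.28 CPM in chronic libraries (log2 fold change -5.19 ± 0.43 SE, adjusted p 6.42e-07). Sema4b, a membrane semaphorin (ENSMUSG00000030539, chromosome 7, 80186841 to 80226527), stood at 21.5, 27.3 and 25.7 CPM in control and 1.36, 1.8 and 1.02 CPM in chronic libraries (log2 fold change -4.09 ± 0.35 SE, adjusted p 1.02e-07). For each of these the chronic libraries lay far below the lowest control library. Nhs, a regulator of actin remodelling (ENSMUSG00000059493, chromosome X, 161833296 to 162159730), stood at 11.4, 14.9 and 10.4 CPM in control and 0.227, 1.26 and 0 CPM in chronic libraries (log2 fold change -4.38 ± 0.56 SE, adjusted p 1.12e-05). Zfp827, a zinc finger protein (ENSMUSG00000071064, chromosome 8, 79028437 to 79193766), stood at 14.1, 10.9 and 11.7 CPM in control and 0.454, 1.26 and 0.255 CPM in chronic libraries (log2 fold change -4.06 ± 0.58 SE, adjusted p 6.03e-05). Nid2, a basement membrane nidogen (ENSMUSG00000021806, chromosome 14, 19751265 to 19811787), stood at 8.68, 13.5 and 9.28 CPM in control and 1.14, 0 and 1.28 CPM in chronic libraries (log2 fold change -3.77 ± 0.63 SE, adjusted p 0.000355). The groups did not overlap in these 3 genes either. The rule that named the 10 largest decreases required this, so it is no added result. The potassium channel genes Kcnd3 (ENSMUSG00000040896, chromosome 3, 105452330 to 105674002) and Kcnk12 (ENSMUSG00000050138, chromosome 17, 87745801 to 87797994) fell from 8.96, 13 and 10.4 to 0.681, 1.08 and 1.28 CPM and from 10.5, 12.8 and 10.1 to 0, 1.62 and 1.53 CPM, with log2 fold changes of -3.38 and -3.35. Serpinf1, which encodes pigment epithelium-derived factor (ENSMUSG00000000753, chromosome 11, 75409769 to 75422701), and Klhdc8b, a kelch domain protein (ENSMUSG00000032609, chromosome 9, 108447636 to 108461581), completed the 10, with log2 fold changes of -3.11 and -2.78. These calls held under every alternative run.

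Homeostatic genes fell or were not called. Of 29 tested, 13 fell and none rose, against 5.17% lower among all genes tested, and the median log2 fold change was -0.54. Their summed level was 16206, 18535 and 18421 CPM in control, 12260.1, 12782 and 11801 CPM in chronic and 12733, 12731 and 12961 CPM in remission libraries. P2ry12, the ADP receptor that steers microglial processes, stood at 573, 746 and 719 CPM in control and 246, 298 and 238 CPM in chronic libraries (log2 fold change -1.38 ± 0.17 SE, adjusted p 7.42e-06). P2ry13, another ADP receptor, stood at 367, 410.2 and 398 CPM in control and 135, 187 and 195 CPM in chronic libraries (log2 fold change -1.18 ± 0.15 SE, adjusted p 7.99e-06). Siglech, a sialic acid-binding lectin, stood at 308, 363 and 363 CPM in control and 145, 169 and 168 CPM in chronic libraries (log2 fold change -1.10 ± 0.13 SE, adjusted p 6.32e-06). All chronic libraries of these 3 genes were below all control libraries. Selplg, the ligand of selectins, stood at 648, 749.8 and 809 CPM in control and 315, 357 and 366 CPM in chronic libraries (log2 fold change -1.09 ± 0.16 SE, adjusted p 4.55e-05). Gpr34, Cst3, Slc2a5, Jam2, Tgfbr1, Entpd1 and Mef2c also fell, by 0.58 (Mef2c) to 1.24 (Slc2a5) on the log2 scale. Tmem119 fell by 0.73 and Cx3cr1, the fractalkine receptor, by 0.66 (adjusted p 0.00209 and 0.0128). The call of Cx3cr1 ended without control replicate 2 (adjusted p 0.0624) and without chronic replicate 1 (adjusted p 0.0562), and its adjusted p ran from 8.33e-07 to 0.795 over the alternatives. Cst3, Tgfbr1, Entpd1, Mef2c, Jam2, Tmem119 and Cx3cr1 did not pass the test against a 1.5-fold change, which left 6 of the 13 that fell. Not called were Csf1r (log2 fold change -0.21), Trem2 (0.02), Fcrls (0.43), Olfml3 (-0.47) and the defining transcription factor Sall1 (-0.54). With library totals alone the number lower was 23.

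Transcription factors of microglial and macrophage identity moved in both directions, with 5 of 22 higher, 4 lower and a median of -0.07. Among all genes tested 9.57% were higher and 5.17% lower. Bhlhe40, a basic helix-loop-helix repressor, stood at 0.711, 0.526 and 1.29 CPM in control and 17.7, 15.7 and 12.8 CPM in chronic libraries (log2 fold change 4.21 ± 0.36 SE, adjusted p 1.28e-07). Maf, a leucine zipper factor of resident macrophages, stood at 145, 179 and 169 CPM in control and 58.1, 72.6 and 45.4 CPM in chronic libraries (log2 fold change -1.48 ± 0.16 SE, adjusted p 1.47e-06). Both were named for a small p in this comparison, so the lack of overlap between their groups is no added result. Rxra (log2 fold change 0.65), Mitf (0.67) and Klf4 (2.45) were among those that rose, and Mef2c (-0.58), Mef2a (-0.49) and Smad3, described with its pathway, fell. Rxra lost its call with library totals alone, and Rxra, Mitf, Klf4, Mef2c and Mef2a did so in the test against 1.5-fold. The call of Mitf ended with library totals alone, without control replicate 1 (adjusted p 0.112) and without chronic replicate 2 (adjusted p 0.0951), and its adjusted p ran from 0.00273 to 0.777 over the alternatives. The call of Klf4 ended by limma-voom and without control replicates 1, 2 or 3 or chronic replicate 1 (adjusted p 0.0537 to 0.116), and its adjusted p ran from 3.05e-06 to 0.116 over the alternatives. The call of Mef2a ended without control replicate 3 (adjusted p 0.0598) and without chronic replicate 3 (adjusted p 0.0794), and its adjusted p ran from 0.000499 to 1 over the alternatives. The number higher was 2 with library totals alone or without control replicate 1, and 3 without control replicate 2, without control replicate 3 or without chronic replicate 2, and the number lower 10 with library totals alone.

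In the transforming growth factor beta pathway, which maintains the homeostatic state, 5 of 16 genes tested fell and none rose (median -0.13). The share lower among all genes tested was 5.17%. The ligand Tgfb1 stood at 78.9, 115 and 112 CPM in control and 62.4, 72.7 and 56.6 CPM in chronic libraries (log2 fold change -0.67 ± 0.16 SE, adjusted p 0.00737). Tgfbr1, its signalling receptor, stood at 1079, 1096 and 1162 CPM in control and 777, 707 and 551 CPM in chronic libraries (log2 fold change -0.71 ± 0.14 SE, adjusted p 0.000888). Nrros, which anchors and presents latent Tgfb1 on microglia, stood at 86.1, 113 and 104 CPM in control and 40.9, 69.1 and 65.5 CPM in chronic libraries (log2 fold change -0.79 ± 0.16 SE, adjusted p 0.00204). Eng, a co-receptor, and Smad3, the transducer, had log2 fold changes of -0.63 and -0.58. All 5 decreases were under 2-fold and none passed the test against 1.5-fold. The call of Tgfb1 ended without control replicate 2 (adjusted p 0.0597), and its adjusted p ran from 8.6e-05 to 0.74 over the alternatives. The call of Smad3 ended without control replicate 2 (adjusted p 0.0516), and its adjusted p ran from 0.000193 to 1 over the alternatives. The call of Eng ended without control replicate 3 (adjusted p 0.0569) and without chronic replicate 1 (adjusted p 0.0529), and its adjusted p ran from 0.000112 to 0.904 over the alternatives. The count of genes that fell was 9 with library totals alone, and 3 without control replicate 2.

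Purinergic genes were exchanged in part: 5 of 15 rose and 5 fell, against 9.57% higher and 5.17% lower among all genes tested. P2ry14, the receptor for UDP-glucose, stood at 0.853, 0 and 0 CPM in control and 29.5, 31.7 and 22.2 CPM in chronic libraries (log2 fold change 6.24 ± 0.47 SE, adjusted p 2.07e-07). Adora1, an inhibitory adenosine receptor, stood at 0.142, 0.526 and 0.647 CPM in control and 12.9, 19.3 and 36.5 CPM in chronic libraries (log2 fold change 5.72 ± 0.51 SE, adjusted p 7.77e-07). Enpp1, an ectonucleotidase, stood at 4.98, 7.01 and 5.61 CPM in control and 22.9, 17.6 and 19.1 CPM in chronic libraries (log2 fold change 1.76 ± 0.21 SE, adjusted p 5.32e-06). The 3 genes were low in every control library and higher in every chronic one. The ATP and UTP receptor P2ry2 rose by 1.95 and the ATP-gated channel P2rx4 by 0.63 on the log2 scale. Beside P2ry12 and P2ry13, the ectonucleotidase Entpd1 (CD39) fell by 0.66, P2rx1 by 1.07 and Adora3 by 0.80. P2rx4, Entpd1, P2rx1 and Adora3 did not pass the test against 1.5-fold, and P2rx4 lost its call with library totals alone. The call of P2rx1 ended without control replicates 2 or 3 or chronic replicate 2 (adjusted p 0.0523 to 0.106), and its adjusted p ran from 0.000866 to 0.21 over the alternatives. The call of Adora3 ended without control replicates 1, 2 or 3 or chronic replicate 1 (adjusted p 0.0579 to 0.102), and its adjusted p ran from 0.000744 to 0.511 over the alternatives. The number lower was 3 without control replicates 2 or 3.

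Damage-associated genes rose. Of 29 tested, 26 were higher and none lower, against 9.57% higher among all genes tested, with a median log2 fold change of 2.80 against -0.01. The summed level was 2488, 2535 and 3101 CPM in control and 14342, 10939 and 8103 CPM in chronic libraries. Cd63, a tetraspanin of late endosomes, stood at 9.53, 8.76 and 10.1 CPM in control and 94.2, 73.6 and 88 CPM in chronic libraries (log2 fold change 3.17 ± 0.16 SE, adjusted p 3.73e-11). Axl, a receptor kinase that binds apoptotic debris through Gas6, stood at 23.6, 20.7 and 41 CPM in control and 509, 382 and 357 CPM in chronic libraries (log2 fold change 3.88 ± 0.24 SE, adjusted p 6.82e-08). Csf1, a ligand of the receptor on which microglial survival depends, stood at 11.5, 9.11 and 7.77 CPM in control and 83.3, 102 and 58.7 CPM in chronic libraries (log2 fold change 3.09 ± 0.21 SE, adjusted p 1.09e-08). Every chronic library exceeded every control library by several-fold in these 3 genes. Apoe, the lipid carrier of the programme, stood at 53.3, 53.4 and 108 CPM in control and 5569, 4294 and 2516 CPM in chronic libraries (log2 fold change 5.86 ± 0.43 SE, adjusted p 6.32e-06). Spp1, osteopontin, a secreted matrix phosphoprotein, stood at 2.84, 1.58 and 3.02 CPM in control and 234, 106 and 236 CPM in chronic libraries (log2 fold change 6.26 ± 0.63 SE, adjusted p 0.000198). Cst7, cystatin F, an inhibitor of lysosomal cathepsins, stood at 0.427, 1.05 and 0.863 CPM in control and 33.1, 16.4 and 13.5 CPM in chronic libraries (log2 fold change 4.75 ± 0.49 SE, adjusted p 4.25e-06). Chronic replicate 3 had the lowest Apoe and Cst7 of its group, but not the lowest Spp1. Itgax, which encodes CD11c, stood at 6.4, 9.99 and 8.2 CPM in control and 85.8, 109 and 28.3 CPM in chronic libraries (log2 fold change 3.20 ± 0.52 SE, adjusted p 0.00302). Lpl, lipoprotein lipase, stood at 5.69, 3.5 and 3.02 CPM in control and 45.6, 66.1 and 12.2 CPM in chronic libraries (log2 fold change 3.31 ± 0.72 SE, adjusted p 0.0149). The call of Lpl ended with only the 6 libraries compared, without control replicate 2 (adjusted p 0.0701) and without control replicate 3 (adjusted p 0.0648), and its adjusted p ran from 2.68e-05 to 0.0701 over the alternatives. The 3 members not called were Ank (log2 fold change 1.34), Cd52 (0.43) and Ccl6 (0.27).

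Growth and repair factors rose in 8 of 17 and fell in 1, with a median of 1.28, against 9.57% higher among all genes tested. Beside Igf1 and Spp1, which the previous lists share, these were Grn, Lgals3, Lgals1, Mmp14, Gas6 and Vegfa; the member that fell was Tgfb1, described above. The call of Lgals1 ended without control replicates 1 or 2 or chronic replicate 1 (adjusted p 0.0597 to 0.0774), and its adjusted p ran from 0.00104 to 0.0774 over the alternatives. Lgals3, galectin-3, a binder of damaged membranes and glycans, stood at 0.142, 0.35 and 1.51 CPM in control and 13.8, 9.54 and 8.93 CPM in chronic libraries (log2 fold change 4.15 ± 0.45 SE, adjusted p 7.42e-06). Mmp14, a membrane metalloproteinase, stood at 19.2, 26.6 and 25.9 CPM in control and 43.1, 53.1 and 77.5 CPM in chronic libraries (log2 fold change 1.28 ± 0.19 SE, adjusted p 7.56e-05). Vegfa, vascular endothelial growth factor A, stood at 0.427, 0.175 and 0.216 CPM in control and 4.09, 3.24 and 1.53 CPM in chronic libraries (log2 fold change 3.27 ± 0.60 SE, adjusted p 0.000608). No chronic library overlapped a control library in these 3 genes, though Vegfa remained low in all 6. Gas6, the bridging ligand of Axl, stood at 24.8, 29.8 and 37.3 CPM in control and 76.5, 59.8 and 85.9 CPM in chronic libraries (log2 fold change 1.28 ± 0.27 SE, adjusted p 0.00651), and did not pass the test against 1.5-fold.

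**Figure D2:**
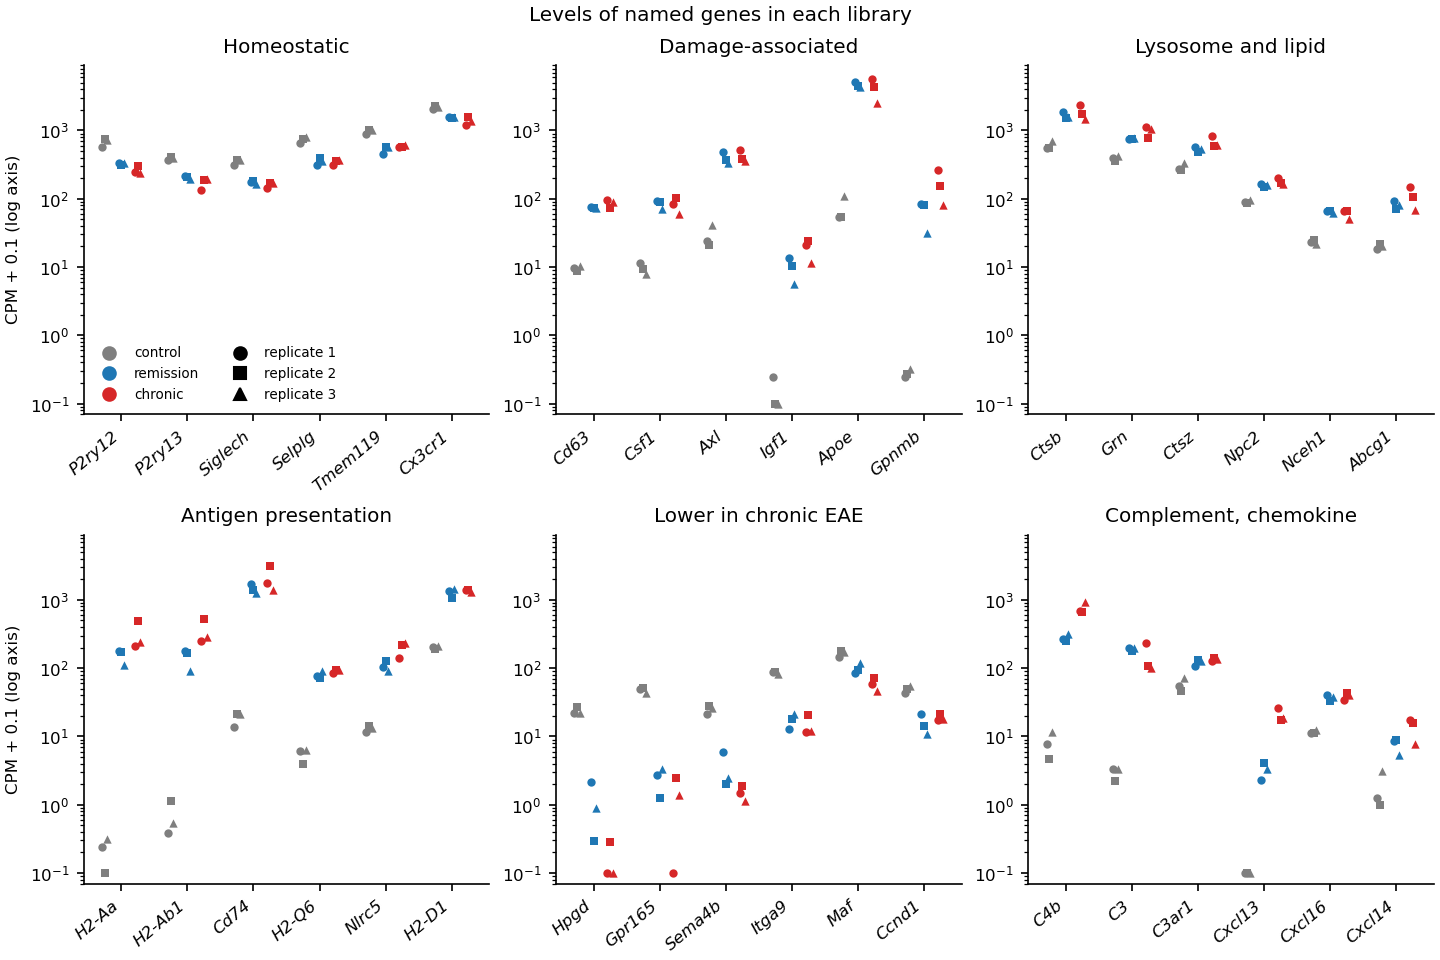
Level of 36 named genes in each library (vertical axis, CPM plus 0.1, log axis), in 6 panels by gene group, with colour for control, remission and chronic and marker shape for the replicate. Homeostatic genes sit slightly below control in the chronic libraries, while damage-associated and MHC class II genes sit up to several orders of magnitude above it.

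Lysosomal genes rose by small amounts in large numbers: 22 of 34 tested were higher and none lower, with a median of 0.57. The acid protease Ctsb stood at 547, 547 and 699 CPM in control and 2329, 1726 and 1468 CPM in chronic libraries (log2 fold change 1.62 ± 0.17 SE, adjusted p 9.03e-07). Ctsz, an exopeptidase, stood at 270.4, 266 and 336 CPM in control and 815, 584 and 611 CPM in chronic libraries (log2 fold change 1.21 ± 0.15 SE, adjusted p 6e-06). Grn, whose product progranulin serves lysosomal function and growth signalling, stood at 391, 355 and 428 CPM in control and 1107, 766 and 1046 CPM in chronic libraries (log2 fold change 1.31 ± 0.15 SE, adjusted p 2.15e-06). In all 3 genes the groups were apart by more than their spread. The list's other increases ran from 0.37 (Lamp2) to 1.11 (Gusb) on the log2 scale. With library totals alone 10 lysosomal genes were higher and 2 lower, so the count depended on scaling, while Ctsb, Ctsz and Grn kept their call. Against 1.5-fold 7 of the 22 remained. The call of Lamp2 ended with library totals alone, with no filter on low counts and without control replicates 1, 2 or 3 or chronic replicates 1 or 3 (adjusted p 0.0608 to 0.136), and its adjusted p ran from 0.00456 to 1 over the alternatives.

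Genes of lipid uptake, efflux and storage rose in 17 of 23 tested, none fell, and the median was 1.40. Among efflux genes, Abcg1, which passes cholesterol to lipoproteins, stood at 18.2, 21.9 and 20.3 CPM in control and 149.6, 105 and 67.8 CPM in chronic libraries (log2 fold change 2.42 ± 0.22 SE, adjusted p 1.53e-06). Abca1, which loads apolipoproteins, stood at 92.2, 90.1 and 131 CPM in control and 764, 538 and 316 CPM in chronic libraries (log2 fold change 2.37 ± 0.26 SE, adjusted p 4.27e-05). Both were highest in chronic replicate 1 and lowest in chronic replicate 3, as was Apoe. Npc2, which moves cholesterol out of lysosomes, stood at 89.3, 86.6 and 96.2 CPM in control and 198, 171 and 165 CPM in chronic libraries (log2 fold change 0.97 ± 0.12 SE, adjusted p 5.73e-06), and the cholesterol ester hydrolase Nceh1 at 23.2, 24.4 and 21.8 CPM in control and 67, 66.8 and 49.7 CPM in chronic libraries (log2 fold change 1.40 ± 0.15 SE, adjusted p 1.37e-06). The fatty acid and lipoprotein scavenger receptor Cd36 stood at 0.569, 1.23 and 0.863 CPM in control and 10.7, 18.9 and 32.9 CPM in chronic libraries (log2 fold change 4.53 ± 0.73 SE, adjusted p 0.00227), with its highest level in chronic replicate 3. Plin2 (log2 fold change 1.13), Soat1 (0.93) and Dgat2 (2.01), genes of lipid droplets and their filling, rose as well. Of 27 genes of sterol and fatty acid synthesis 4 rose and none fell (median 0.13), near the 9.57% higher among all genes tested. These were Acaca, Fasn, Srebf1 and Scd2, all of the fatty acid branch or its regulator. Acaca, acetyl-CoA carboxylase, stood at 19.1, 11.6 and 14.7 CPM in control and 61.3, 48.6 and 42.6 CPM in chronic libraries (log2 fold change 1.74 ± 0.20 SE, adjusted p 3.31e-06). Fasn, Srebf1 and Scd2 did not pass the test against 1.5-fold. The call of Srebf1 ended with library totals alone and without control replicate 1 (adjusted p 0.0573), and its adjusted p ran from 0.000792 to 0.67 over the alternatives. The call of Scd2 ended with library totals alone, with no filter on low counts and without control replicates 1, 2 or 3 or chronic replicates 1 or 2 (adjusted p 0.0726 to 0.124), and its adjusted p ran from 0.000979 to 0.144 over the alternatives. The number higher in this list was 2 with library totals alone or without control replicate 1.

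Of 19 genes of iron and heme handling tested, 7 rose and 2 fell, against 9.57% higher and 5.17% lower among all genes tested. The ferritin subunits rose together: Fth1 stood at 60.03, 58.2 and 87.6 CPM in control and 254, 225 and 292 CPM in chronic libraries (log2 fold change 1.91 ± 0.18 SE, adjusted p 8.8e-07) and Ftl1 at 51.1, 46.1 and 53.1 CPM in control and 138, 119.6 and 147 CPM in chronic libraries (log2 fold change 1.43 ± 0.13 SE, adjusted p 3.09e-07). Slc40a1, the iron exporter ferroportin, fell, at 82.1, 87.3 and 92.8 CPM in control and 40.6, 41.1 and 19.6 CPM in chronic libraries (log2 fold change -1.36 ± 0.22 SE, adjusted p 0.000407). Hmox1, which opens heme, had a log2 fold change of 0.94 (adjusted p 0.00584), not called with library totals alone or against 1.5-fold. The other decrease in the list was Hpgd, a prostaglandin enzyme and not an iron gene.

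Genes of antigen presentation held several of the largest increases. In the MHC class II list, which includes costimulatory ligands, 12 of 15 tested rose and 1 fell (median 1.93), and the sum was 237, 236 and 249 CPM in control and 2732, 5106 and 2592 CPM in chronic libraries. Values of H2 genes are uncertain where near-identical copies share reads. Cd74, the invariant chain that guards the class II groove, stood at 13.5, 21.6 and 21.4 CPM in control and 1762, 3152 and 1399.9 CPM in chronic libraries (log2 fold change 6.82 ± 0.38 SE, adjusted p 3.85e-07). H2-Aa, a class II alpha chain (ENSMUSG00000036594, chromosome 17, 34282744 to 34287823), stood at 0.142, 0 and 0.216 CPM in control and 210.2, 497 and 244 CPM in chronic libraries (2904-fold higher over pooled counts, exact 95% counting interval 804 to 23988, adjusted p 1.39e-06). H2-Ab1, its beta chain (ENSMUSG00000073421, chromosome 17, 34257689 to 34269419), stood at 0.284, 1.05 and 0.432 CPM in control and 248, 531 and 282 CPM in chronic libraries (log2 fold change 9.20 ± 0.57 SE, adjusted p 2.63e-06). Each was highest in chronic replicate 2, and the other chronic libraries still lay far above all controls. H2-Eb1, the beta chain of the other class II molecule (ENSMUSG00000060586, chromosome 17, 34305867 to 34316674), stood at 0.142, 1.05 and 0 CPM in control and 177, 452 and 220.1 CPM in chronic libraries (log2 fold change 9.37 ± 0.67 SE, adjusted p 1.26e-05). Ciita, the transactivator of class II genes, stood at 2.7, 2.63 and 2.81 CPM in control and 17, 88.8 and 54.1 CPM in chronic libraries (log2 fold change 4.30 ± 0.65 SE, adjusted p 0.00219). Cd40, which receives help signals from T cells, stood at 0, 0.526 and 0.863 CPM in control and 2.72, 3.6 and 2.55 CPM in chronic libraries (log2 fold change 2.79 ± 0.55 SE, adjusted p 0.00134). The peptide loading genes H2-DMa, H2-DMb1, H2-DMb2 and H2-Oa rose by 0.97 to 1.93 on the log2 scale. Cd86 rose (log2 fold change 0.50) and Cd80, the other costimulatory ligand of that pair, fell (-1.07, adjusted p 0.0403); neither passed against 1.5-fold, and H2-DMb1 and Cd86 lost their call with library totals alone. The call of Cd80 ended by DESeq2 and without control replicates 1, 2 or 3 or chronic replicates 1, 2 or 3 (adjusted p 0.0583 to 0.188), and its adjusted p ran from 0.00424 to 0.289 over the alternatives.

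MHC class I genes and their processing machinery rose in 17 of 18 tested with none lower and Psmb10, a subunit of the immunoproteasome, not called (median 1.94, sum 663, 735 and 808 CPM in control and 3028, 3189 and 3367 CPM in chronic libraries). H2-D1, a classical class I heavy chain, stood at 202, 189 and 211 CPM in control and 1373, 1373 and 1295 CPM in chronic libraries (log2 fold change 2.75 ± 0.14 SE, adjusted p 3.29e-11). H2-Q6, a heavy chain of the Qa region, stood at 6.12, 3.86 and 6.26 CPM in control and 85.1, 94.7 and 94.4 CPM in chronic libraries (log2 fold change 4.07 ± 0.17 SE, adjusted p 4.64e-12). H2-Q7, another Qa heavy chain, stood at 0.569, 0.35 and 1.51 CPM in control and 32.2, 44.1 and 46.7 CPM in chronic libraries (log2 fold change 5.72 ± 0.29 SE, adjusted p 4.11e-11). The chronic libraries differed little from each other in these genes. Nlrc5, the transactivator of class I genes, stood at 11.7, 14 and 13.4 CPM in control and 142, 219.9 and 232 CPM in chronic libraries (log2 fold change 3.93 ± 0.19 SE, adjusted p 3.29e-11). The light chain B2m (log2 fold change 1.56), the peptide transporter genes Tap1 (2.06) and Tap2 (1.20), and the immunoproteasome genes Psmb8 (1.52), Psmb9 (1.82), Psme1 (1.26) and Psme2 (0.89) rose with them.

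Interferon-responsive genes rose in both lists. Of 23 genes associated with interferon gamma 17 rose and none fell (median 2.25, the same with genes at 0 in a group set at the floor). In the type I interferon list 11 of 37 rose and none fell (median 1.13). With only the 6 libraries compared in the model, 10 genes of the interferon gamma list were higher. Irf1, an early target of interferon gamma and itself a transcription factor, stood at 27, 27.7 and 33 CPM in control and 62, 99.2 and 123 CPM in chronic libraries (log2 fold change 1.70 ± 0.19 SE, adjusted p 5.02e-06). Irgm1, an immunity-related GTPase, stood at 25.5, 22.1 and 21.4 CPM in control and 59.2, 72.7 and 119 CPM in chronic libraries (log2 fold change 1.85 ± 0.20 SE, adjusted p 3.73e-06). In both genes chronic replicate 1 was the lowest of its group and replicate 3 the highest, with replicate 1 still above every control library. Gbp2, a guanylate-binding protein, stood at 2.7, 3.68 and 7.77 CPM in control and 27.2, 78.1 and 140.3 CPM in chronic libraries (log2 fold change 4.18 ± 0.64 SE, adjusted p 0.00254). Acod1, which makes itaconate, stood at 0, 0 and 0 CPM in control and 2.27, 4.14 and 8.42 CPM in chronic libraries (at least 27.5-fold higher against the floor, adjusted p 3.32e-05). Cxcl9, a chemokine for T cells that bear CXCR3, stood at 0, 0 and 0 CPM in control and 2.72, 6.3 and 8.16 CPM in chronic libraries (at least 32.9-fold higher against the floor, adjusted p 0.000938). Zbp1, a sensor of Z-form nucleic acids, stood at 3.27, 3.33 and 2.81 CPM in control and 19.98, 24.5 and 64.8 CPM in chronic libraries (log2 fold change 3.50 ± 0.47 SE, adjusted p 0.000505). In the type I list, Ifi204 stood at 0.711, 1.05 and 1.08 CPM in control and 12.9, 13.1 and 33.2 CPM in chronic libraries (log2 fold change 4.35 ± 0.45 SE, adjusted p 9.08e-06) and Oasl2 at 4.27, 4.03 and 7.98 CPM in control and 26.3, 16.9 and 33.2 CPM in chronic libraries (log2 fold change 2.25 ± 0.29 SE, adjusted p 7.25e-05). Cd274, the checkpoint ligand PD-L1, had a log2 fold change of 2.25 (adjusted p 0.000167).

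Promoter letters were read for 9 genes of the interferon and MHC lists that rose against both control and remission. They were H2-DMa, H2-DMb2, Nlrc5, Psmb9, Psme1, Psme2, Irgm1, Irgm2 and Irf1. All but Irgm1 lost their call against remission with only the 6 libraries compared (edgeR, adjusted p 0.0518 to 0.179). Because the genes came from these lists, their shares below are no test against all promoters. RefSeq promoters on GRCm38.p6, 250 bases before each start, were matched for 8 genes with 11 starts. Letters searched were TTCNNNGAA, the core of the gamma-activated sequence, which reads the same on both strands, and GAAANNGAA on both strands, the core of the element read by interferon regulatory factors. The first stood in 3 of 11 starts (27.3%) against 7.02% of 32851 promoters, and the other in 2 of 11 (18.2%) against 7.13%. A match is a description of letters and not a shown binding site. 4 of the 8 genes held a match, printed with up to 30 bases on either side and the matched letters in capitals.
Irf1 promoter (chr11:53769894-53769962, plus strand): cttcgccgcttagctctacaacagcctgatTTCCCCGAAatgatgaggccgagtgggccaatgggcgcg
Irgm1 promoter (chr11:48871421-48871480, minus strand): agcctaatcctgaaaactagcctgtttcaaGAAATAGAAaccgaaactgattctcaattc
Irgm2 promoter (chr11:58214872-58214940, plus strand): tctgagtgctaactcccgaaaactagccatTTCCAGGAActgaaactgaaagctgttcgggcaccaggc
H2-DMb2 promoter (chr17:34145001-34145069, plus strand): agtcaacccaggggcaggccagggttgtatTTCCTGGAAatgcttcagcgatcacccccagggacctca
The first base of the match lay 90 bases before the start of Irf1, 30 before that of Irgm1, 75 before that of Irgm2 and 218 before that of H2-DMb2. Irgm1 held another match of the same letters, overlapping the one in capitals, and Irgm2 held a GAAANNGAA match 64 bases before its start.

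Cytokine and chemokine genes rose in 9 of 24 tested and fell in 2 (median 1.56), against 9.57% higher and 5.17% lower among all genes tested. Beside Cxcl13, Csf1 and Cxcl9, the chemokines Cxcl16, Cxcl14, Ccl5 and Ccl3, the cytokine Mif and the interleukin-1 receptor antagonist Il1rn rose. Cxcl16, a membrane-bound chemokine and scavenger of oxidised lipid, stood at 11.1, 11 and 12.3 CPM in control and 33.8, 42.5 and 40.3 CPM in chronic libraries (log2 fold change 1.76 ± 0.17 SE, adjusted p 3.79e-07). Cxcl14, a chemokine of resting tissue, stood at 1.14, 0.876 and 3.02 CPM in control and 17.5, 15.5 and 7.65 CPM in chronic libraries (log2 fold change 3.08 ± 0.45 SE, adjusted p 0.000101). Ccl5, a chemokine for T cells and monocytes, stood at 0.427, 0 and 0.216 CPM in control and 2.72, 7.2 and 8.42 CPM in chronic libraries (log2 fold change 4.59 ± 0.70 SE, adjusted p 0.000185). All 3 lay above every control library. Il6 fell, at 5.97, 8.41 and 4.32 CPM in control and 1.14, 0.72 and 0.255 CPM in chronic libraries (log2 fold change -3.08 ± 0.59 SE, adjusted p 0.000945), and so did Tgfb1, described above. The number lower was 6 with library totals alone, and 1 without control replicate 2.

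In the NF-kB signalling list 3 of 22 genes rose and 2 fell, near the 9.57% higher and 5.17% lower among all genes tested. Tnfaip2, a target of tumour necrosis factor, stood at 1.42, 1.93 and 2.16 CPM in control and 8.4, 8.64 and 10.5 CPM in chronic libraries (log2 fold change 2.33 ± 0.29 SE, adjusted p 9.66e-06). The inflammasome sensor Nlrp3 stood at 74.3, 93.2 and 99.3 CPM in control and 39, 62.5 and 53.3 CPM in chronic libraries (log2 fold change -0.78 ± 0.16 SE, adjusted p 0.00178), and the subunit Rel fell (log2 fold change -0.51) while Icam1 (0.66) and Bcl3 (1.15) rose. Nlrp3, Rel, Icam1 and Bcl3 did not pass against 1.5-fold. The call of Rel ended without control replicates 1 or 2 or chronic replicate 2 (adjusted p 0.0633 to 0.102), and its adjusted p ran from 0.000475 to 1 over the alternatives. The call of Icam1 ended with library totals alone, without control replicate 2 (adjusted p 0.0558) and without chronic replicate 3 (adjusted p 0.0568), and its adjusted p ran from 0.000296 to 0.791 over the alternatives. The call of Bcl3 ended with library totals alone, with the title digit as a covariate, with only the 6 libraries compared, by limma-voom and without control replicates 1, 2 or 3 or chronic replicate 3 (adjusted p 0.0522 to 0.343), and its adjusted p ran from 0.0179 to 0.343 over the alternatives. Among pattern receptors and their adaptors 3 of 21 rose and 2 fell, again near the shares among all genes tested. Tlr2, which senses bacterial lipoprotein, stood at 79.9, 75.2 and 82.2 CPM in control and 184, 133 and 145 CPM in chronic libraries (log2 fold change 0.96 ± 0.14 SE, adjusted p 7.57e-05). Tlr12 stood at 17.6, 17.9 and 16.4 CPM in control and 31.3, 47.2 and 47.9 CPM in chronic libraries (log2 fold change 1.28 ± 0.19 SE, adjusted p 5.8e-05). Tlr5, the flagellin receptor, fell, at 4.69, 7.01 and 6.69 CPM in control and 0.454, 1.08 and 0 CPM in chronic libraries (log2 fold change -3.38 ± 0.59 SE, adjusted p 0.000397). Tlr1 rose by 0.64 and Cd14 fell by 0.56 on the log2 scale, and neither passed against 1.5-fold. The call of Tlr1 ended with library totals alone, without control replicate 2 (adjusted p 0.0981) and without control replicate 3 (adjusted p 0.0751), and its adjusted p ran from 0.0034 to 0.864 over the alternatives. The call of Cd14 ended with the title digit as a covariate and without control replicates 2 or 3 or chronic replicates 1 or 3 (adjusted p 0.087 to 0.167), and its adjusted p ran from 0.000695 to 1 over the alternatives.

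Complement genes rose in 10 of 18 tested and fell in 1, against 9.57% higher and 5.17% lower among all genes tested. Their median was 0.91, or 0.81 with genes at 0 in a group set at the floor. C4b, which joins both early pathways of complement, stood at 7.54, 4.56 and 11.7 CPM in control and 676, 670.4 and 927 CPM in chronic libraries (log2 fold change 6.6 ± 0.34 SE, adjusted p 6.82e-08). C3, the protein on which all pathways meet, stood at 3.27, 2.1 and 3.24 CPM in control and 231, 107 and 102 CPM in chronic libraries (log2 fold change 5.66 ± 0.35 SE, adjusted p 4.06e-07). C2, the protease partner of C4, stood at 0.142, 0 and 0.216 CPM in control and 6.58, 3.6 and 5.1 CPM in chronic libraries (43.2-fold higher over pooled counts, exact 95% counting interval 11.5 to 364, adjusted p 4.84e-06). The 3 were low in all control libraries. C3ar1, the receptor of the C3a fragment, stood at 54.2, 45.6 and 70.6 CPM in control and 129, 139 and 136 CPM in chronic libraries (log2 fold change 1.25 ± 0.14 SE, adjusted p 2.86e-06). C1qa, of the first component, stood at 546, 666 and 719.6 CPM in control and 1122, 1009 and 1051 CPM in chronic libraries (log2 fold change 0.72 ± 0.16 SE, adjusted p 0.00353), not called with library totals alone or against 1.5-fold. Serping1, which inhibits the first component, had 0 counts in control and 0.227, 1.98 and 1.02 CPM in chronic libraries. The call of Serping1 ended without control replicates 1, 2 or 3 or chronic replicate 2 (adjusted p 0.0581 to 0.108), and its adjusted p ran from 0.0013 to 0.108 over the alternatives. Cr1l, a regulator, fell (log2 fold change -0.50) and did not pass against 1.5-fold. The call of Cr1l ended without control replicates 1 or 2 or chronic replicate 2 (adjusted p 0.0774 to 0.0942), and its adjusted p ran from 0.00082 to 1 over the alternatives.

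Among 8 Fc receptor genes 2 rose: Fcgr4, at 1.28, 2.45 and 2.59 CPM in control and 6.81, 14.2 and 22.2 CPM in chronic libraries (log2 fold change 2.79 ± 0.48 SE, adjusted p 0.000898), and the shared signalling chain Fcer1g (log2 fold change 0.71), whose call ended with library totals alone or against 1.5-fold. The inhibitory Fcgr2b was not called (log2 fold change 0.24, adjusted p 0.397). Beside these 2 of 8 stands the 9.57% higher among all genes tested. Of 22 inhibitory and activating myeloid receptors 7 rose and 4 fell, against 9.57% higher and 5.17% lower among all genes tested. Cd22, an inhibitory sialic acid-binding receptor, stood at 1.56, 2.63 and 2.59 CPM in control and 26.3, 26.3 and 11 CPM in chronic libraries (log2 fold change 3.26 ± 0.33 SE, adjusted p 1.17e-06). Clec7a, the beta-glucan receptor dectin-1, stood at 5.26, 2.1 and 6.26 CPM in control and 57.9, 55.6 and 42.8 CPM in chronic libraries (log2 fold change 3.53 ± 0.35 SE, adjusted p 2.57e-05). Cd300lf, a lipid-sensing receptor, stood at 112, 123 and 132 CPM in control and 333, 228 and 246 CPM in chronic libraries (log2 fold change 1.14 ± 0.16 SE, adjusted p 4.87e-05). The groups did not overlap in any of these, and the decreases were Siglech, Siglece, Clec4a2 and Cd300a, with log2 fold changes of -1.10, -1.19, -1.39 and -0.90. The call of Cd300a ended without control replicates 1 or 3 or chronic replicate 3 (adjusted p 0.0568 to 0.0743), and its adjusted p ran from 1.45e-05 to 0.323 over the alternatives. Of 20 integrin and adhesion genes 7 rose and 4 fell, against the same shares among all genes tested. Itga9, an integrin alpha chain, fell, at 89, 87.3 and 82.4 CPM in control and 11.6, 20.3 and 12 CPM in chronic libraries (log2 fold change -2.54 ± 0.21 SE, adjusted p 8.46e-08). Itgal, the alpha chain of LFA-1, rose, at 0.427, 0.35 and 0.647 CPM in control and 16.1, 36.4 and 72.2 CPM in chronic libraries (log2 fold change 6.4 ± 0.75 SE, adjusted p 0.000423), highest in chronic replicate 3. Vcam1 rose, at 2.7, 1.05 and 2.16 CPM in control and 14.1, 10.1 and 10.2 CPM in chronic libraries (log2 fold change 2.5 ± 0.29 SE, adjusted p 4.71e-06). The number of adhesion genes higher was 4 with library totals alone.

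Glycolytic genes rose in 12 of 18 tested with none lower (median 0.79). Pkm, pyruvate kinase, stood at 45.2, 48.2 and 66 CPM in control and 185, 167 and 214 CPM in chronic libraries (log2 fold change 1.83 ± 0.15 SE, adjusted p 4.74e-08). Ldha, lactate dehydrogenase A, stood at 33.7, 32.4 and 34.5 CPM in control and 93.1, 79.4 and 95.4 CPM in chronic libraries (log2 fold change 1.41 ± 0.13 SE, adjusted p 2.63e-07). Pgk1, phosphoglycerate kinase, stood at 5.97, 7.89 and 8.42 CPM in control and 33.1, 21.8 and 33.9 CPM in chronic libraries (log2 fold change 2.0 ± 0.23 SE, adjusted p 4.77e-06). Chronic and control libraries were well apart in each. Aldoa rose by 1.31 on the log2 scale, the glucose transporter gene Slc2a1 by 1.12 and Gapdh by 0.66. The call of Gapdh ended with library totals alone and without control replicates 1 or 2 or chronic replicate 3 (adjusted p 0.0676 to 0.0769), and its adjusted p ran from 0.0138 to 0.798 over the alternatives. Nuclear genes of the respiratory chain rose in 8 of 27 (median 0.47), against 9.57% higher among all genes tested. They were led by Atp5c1 (log2 fold change 0.60), Sdhc (0.88), Cox4i1 (0.83) and Atp5b (0.72). None of these was called with library totals alone or against 1.5-fold. The call of Cox4i1 ended with library totals alone and without control replicate 1 (adjusted p 0.0778), and its adjusted p ran from 0.000402 to 0.388 over the alternatives. The call of Atp5b ended with library totals alone and without control replicates 1 or 2 or chronic replicate 3 (adjusted p 0.0626 to 0.0759), and its adjusted p ran from 1.62e-05 to 0.613 over the alternatives. The number higher was 1 with library totals alone, 2 without control replicate 1, 4 without control replicate 2, and 3 without chronic replicate 3. All 13 mitochondrially encoded genes tested rose, with a median of 1.32, among them mt-Co1 at 410.2, 406 and 538 CPM in control and 1238, 718 and 1198 CPM in chronic libraries (log2 fold change 1.22 ± 0.22 SE, adjusted p 0.00114), and the number higher was 8 without control replicate 2 or without chronic replicate 3. Cytosolic ribosomal protein genes rose in 26 of 28, with a median of 0.96, for example Rplp0 at 69.4, 68.2 and 71.6 CPM in control and 182, 150.2 and 222 CPM in chronic libraries (log2 fold change 1.40 ± 0.15 SE, adjusted p 1.39e-06). Processed copies of ribosomal genes can share reads with them. The mitochondrial share given above was higher in every chronic than in every control library, but for the mitochondrially encoded genes it is the same measure. The share of the 6 most counted features was nearly equal in control replicates 2 and 3 (56.2%) and chronic replicate 1 (56.4%). Ribosomal protein genes summed to 1004, 1059 and 2034 CPM in these libraries. With the 6 most counted features and the mitochondrial genes left out, 97.5% of all calls between chronic and control microglia were kept. The mitochondrially encoded genes left out count among the calls lost. The numbers of ribosomal protein and nuclear respiratory chain genes higher then moved by no more than 1.5 times. This rerun kept composition scaling, so it cannot show how far these groups depend on scaling. Whether either share had a part in the change of these groups was not tested.

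Several of the list counts above were smaller by over 1.5 times in the test against a 1.5-fold change. Higher then were 1 sterol synthesis, 1 NF-kB, 6 complement, 4 adhesion, 1 identity factor, 8 mitochondrially encoded and 11 ribosomal protein genes, and none of the nuclear respiratory chain. Lower then were 2 purinergic, 1 identity factor, 1 cytokine and 1 Toll-like receptor genes, and none of the TGF-beta and NF-kB lists. Among cell cycle lists 2 S phase and 7 G2 and M phase genes were higher against 1.5-fold. With library totals alone, the NF-kB list had 1 higher and 5 lower, the Toll-like receptor list 6 lower, the complement list 3 lower, the paired receptor list 7 lower and the iron and heme list 4 lower.

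**Figure D3:**
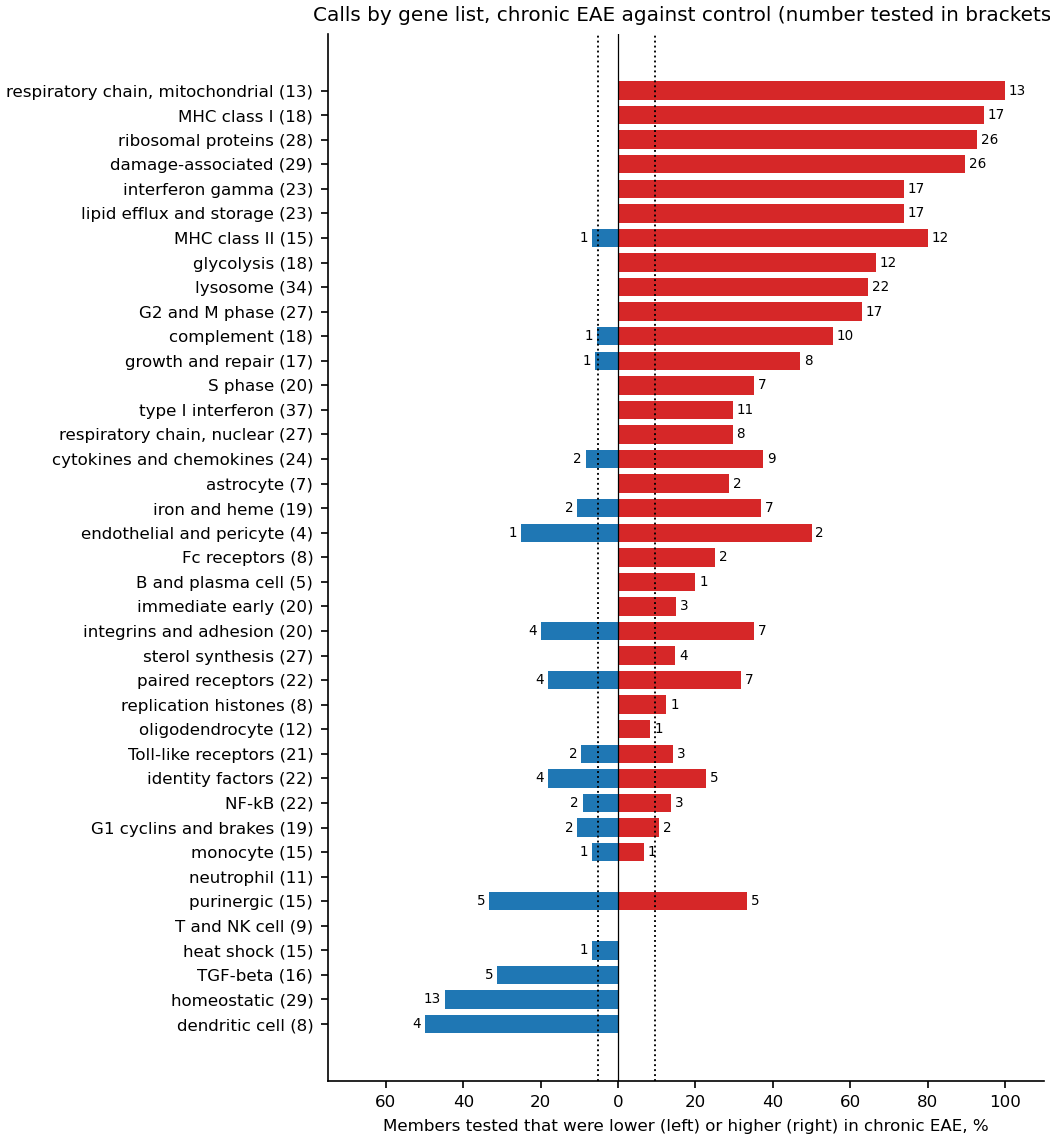
Share of tested members of each gene list that were higher (bars to the right) or lower (bars to the left) in chronic than control microglia, in percent, with the number called at the bar end and the number tested in brackets; dotted lines mark the 9.57% higher and 5.17% lower among all genes tested. Damage-associated, MHC class I, mitochondrially encoded and ribosomal lists reach furthest to the right. The dendritic cell and homeostatic lists, which share Siglech, reach furthest to the left.

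Cell cycle transcripts were higher on average in chronic libraries, and 1 library held most of the increase. The S phase, G2 and M phase and replication histone lists together summed to 259, 249 and 239.9 CPM in control libraries and to 354, 363 and 1102 CPM in chronic replicates 1, 2 and 3. Remission libraries stood at 208 to 261 CPM and acute libraries at 438 to 508 CPM. With composition scaling, chronic replicates 1 and 2 thus lay above every control and remission library and below every acute one. Replicate 3 was the highest of all 12. With library totals alone, chronic replicates 1 and 2 lay slightly below control replicate 1. The scaling factor was 1.405 for control replicate 1, and 1.016 and 0.9757 for chronic replicates 1 and 2. By phase, the S phase list summed to 181, 183 and 410.4 CPM in chronic replicates 1, 2 and 3 against 129 to 156 CPM in control, the G2 and M phase list to 127, 114 and 543 CPM against 45.7 to 60.5 CPM, and the histones to 45.6, 65.9 and 148 CPM against 43.1 to 65.2 CPM. Chronic replicate 3 was 2.89, 10.2 and 2.73 times the control mean in the respective lists, and 2.05, 7.2 and 1.98 times with library totals alone. For the histones, chronic replicate 1 lay within the control range and replicate 2 just above it.

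In the test, 7 of 20 S phase genes, 17 of 27 G2 and M phase genes and 1 of 8 replication histone genes rose and none fell, with medians of 0.91, 2.15 and 0.57. The S phase count was 4 with library totals alone, 2 without control replicate 1, 3 without control replicate 2, 1 without control replicate 3 or without chronic replicate 3, and 11 without chronic replicate 1. The G2 and M phase count was 5 with only the 6 libraries compared or without chronic replicate 3, 6 without control replicate 1, 8 without control replicate 2, and 7 without control replicate 3. Mki67, the proliferation antigen Ki-67, stood at 8.53, 8.06 and 7.98 CPM in control and 26.8, 20.5 and 125 CPM in chronic libraries (log2 fold change 2.79 ± 0.76 SE, adjusted p 0.0416). Top2a, topoisomerase II alpha, of replicating and mitotic cells, stood at 6.26, 4.03 and 2.37 CPM in control and 14.3, 16 and 69.9 CPM in chronic libraries (log2 fold change 2.91 ± 0.71 SE, adjusted p 0.0251). Racgap1, which acts in cytokinesis, stood at 2.56, 1.58 and 2.81 CPM in control and 5.68, 7.74 and 27 CPM in chronic libraries (log2 fold change 2.51 ± 0.49 SE, adjusted p 0.0021). In each of these genes chronic replicates 1 and 2 also lay above all control libraries. Without chronic replicate 3 the log2 fold change of Mki67 was 1.52 (adjusted p 0.0137), that of Top2a 1.79 (adjusted p 0.00365), that of Racgap1 1.54 (adjusted p 0.00662), that of Ccna2, a cyclin of S and G2 phase, 1.38 (adjusted p 0.0404), that of Tacc3, of the spindle, 1.40 (adjusted p 0.039), that of the replicative helicase subunit Mcm6 1.3 (adjusted p 0.00981) and that of the linker histone Hist1h1b 2.81 (adjusted p 0.0313). These 7 remained called with chronic replicates 1 and 2 alone. The call of Mki67 ended with no filter on low counts, with the title digit as a covariate, with only the 6 libraries compared and without control replicates 1, 2 or 3 (adjusted p 0.122 to 0.133), and its adjusted p ran from 0.0024 to 0.139 over the alternatives. The call of Top2a ended with no filter on low counts, with only the 6 libraries compared and without control replicates 1, 2 or 3 (adjusted p 0.0562 to 0.0936), and its adjusted p ran from 0.000661 to 0.121 over the alternatives. Mki67 and Top2a did not pass against 1.5-fold. The D cyclin genes Ccnd1 and Ccnd2 fell. Ccnd1 stood at 42.5, 49.9 and 55.5 CPM in control and 17, 21.2 and 18.1 CPM in chronic libraries (log2 fold change -1.38 ± 0.19 SE, adjusted p 3.87e-05), and Ccnd2 at 38.8, 31.2 and 31.5 CPM in control and 2.72, 9.54 and 12.5 CPM in chronic libraries (log2 fold change -2.04 ± 0.42 SE, adjusted p 0.00722). In both, chronic replicate 1 was the lowest of its group, and all chronic libraries were below all control libraries. In the list of cell cycle brakes and D cyclins as a whole 2 of 19 rose, Gadd45b and Cdkn2c, both at low levels in all 6 libraries. This number was near the 9.57% higher among all genes tested. The call of Gadd45b ended against 1.5-fold, without control replicates 2 or 3 or chronic replicate 2 (adjusted p 0.0988 to 0.235), and its adjusted p ran from 0.0172 to 0.235 over the alternatives. The call of Cdkn2c ended against 1.5-fold, with library totals alone, with the title digit as a covariate and without control replicates 1 or 3 or chronic replicates 1 or 3 (adjusted p 0.0719 to 0.224), and its adjusted p ran from 0.0255 to 0.224 over the alternatives.

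**Figure D4:**
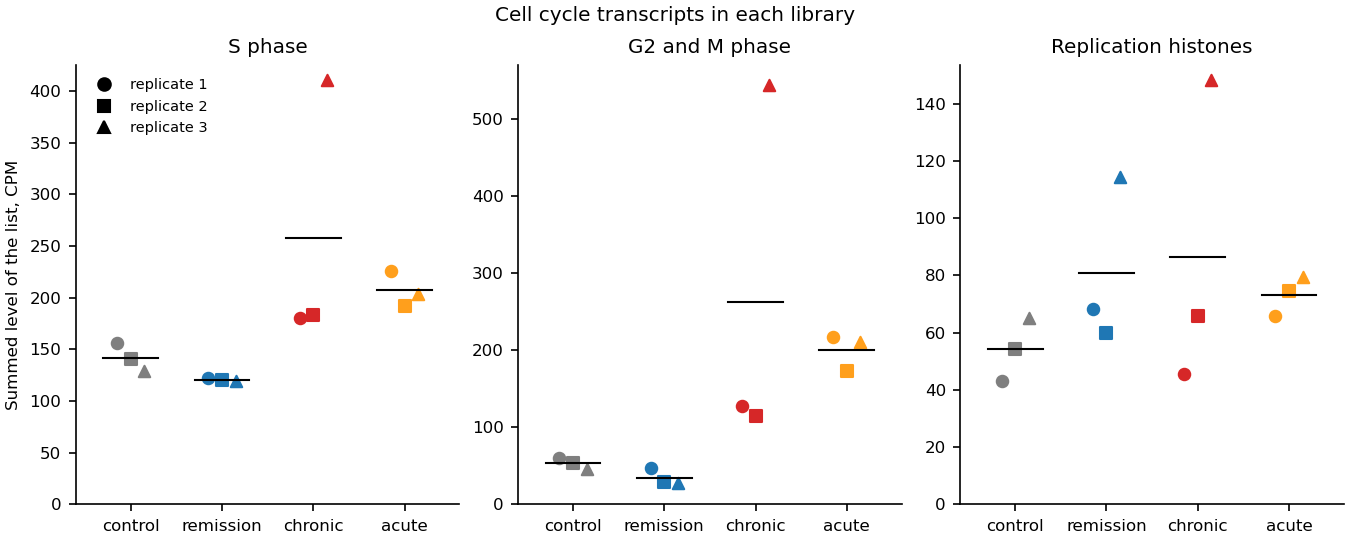
Summed level of the S phase, G2 and M phase and replication histone lists in each of the 12 libraries (vertical axis, CPM, from 0), by group, with marker shape for the replicate and a line at the group mean. Chronic replicate 3 is the highest library in each panel; the other chronic libraries lie near or above the control libraries.

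The chronic libraries also differed from each other in other gene groups. The interferon gamma list summed to 594, 1259 and 1629 CPM in chronic replicates 1, 2 and 3, against 526 to 549 CPM in control. Chronic replicate 1 therefore exceeded the control range only slightly in the sum, of which the uncalled Irf8 alone made 261, 421 and 363 CPM. The MHC class II list was highest in replicate 2, the damage-associated list in replicate 1 and the cell cycle lists in replicate 3, so no library was highest throughout. Genes with the largest spread over the chronic libraries included Ccl2, a monocyte chemokine, at 0.454, 4.32 and 14.8 CPM, the mitotic genes Cdca2 and Hmmr, at 1.14, 0.9 and 13.8 and 0.454, 2.16 and 11.7 CPM, the chaperone Hspa1b, at 0.454, 11.9 and 9.18 CPM, and the early response factor Fosb, at 0.681, 12.2 and 17.1 CPM. Hspa1b has a near-identical copy, and it and Fosb varied in control too, at 7.25, 20.7 and 74.7 and 2.42, 10.5 and 15.1 CPM. The remaining 3 were high in chronic replicate 1: Zbtb16 at 43.4, 0.54 and 1.53 CPM, Hif3a at 13.2, 1.44 and 0.51 CPM and Pik3ip1 at 42.4, 5.22 and 2.55 CPM. Zbtb16 is known as a gene that glucocorticoids raise, and others of that kind, chosen after these values were seen, were highest in the same library. Fkbp5 stood at 259, 70.04 and 110.2 CPM, Per1 at 177, 43.2 and 63 CPM, Ddit4 at 49, 5.76 and 6.89 CPM and Tsc22d3 at 88.8, 19.4 and 39 CPM. Of these 7 genes Pik3ip1 alone was called against control (log2 fold change 4.33), and it did not pass against 1.5-fold. The call of Pik3ip1 ended with no filter on low counts, with the title digit as a covariate, with only the 6 libraries compared and without control replicates 1, 2 or 3 (adjusted p 0.0933 to 0.108), and its adjusted p ran from 5.3e-05 to 0.158 over the alternatives.

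**Figure D5:**
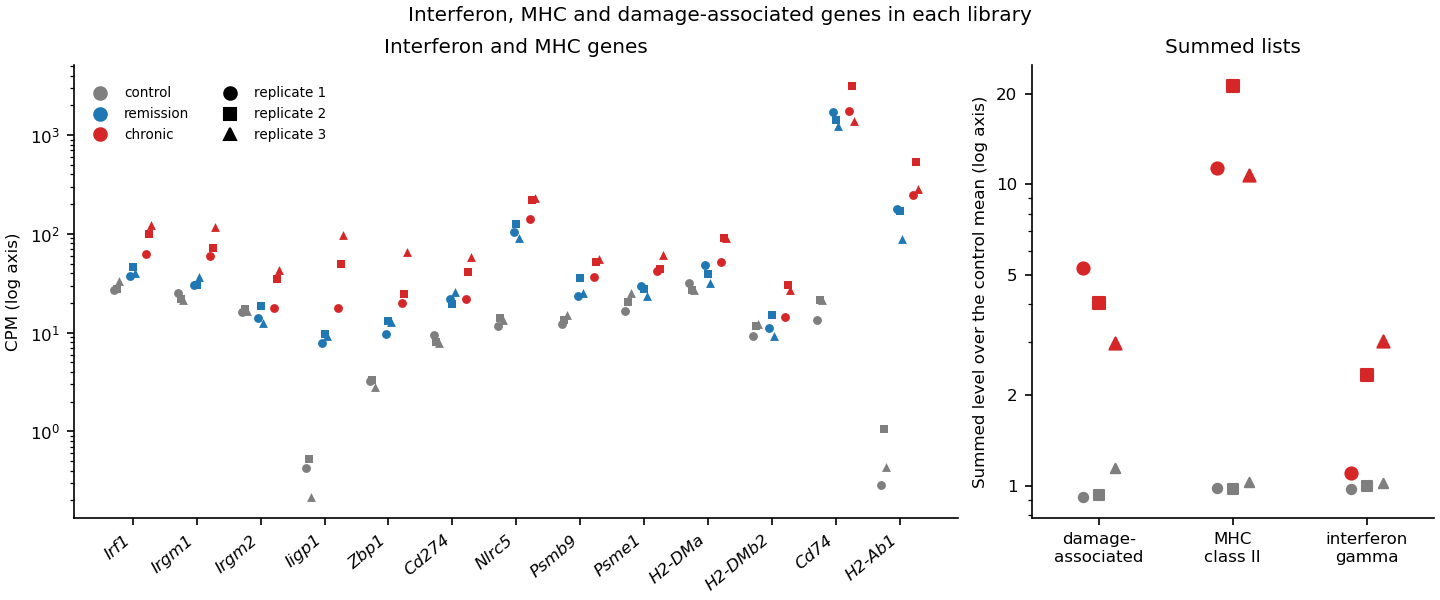
Left, level of 13 interferon and MHC genes in each control, remission and chronic library (vertical axis, CPM, log axis); right, summed level of the damage-associated, MHC class II and interferon gamma lists in each chronic and control library over the control mean (log axis). Marker shapes give the replicate, and the chronic library that is highest differs between the 3 lists.

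Fewer genes separated chronic microglia from those of remission, the quiet phase between attacks. Of the same 12545 genes, 151 were called between chronic and remission libraries (1.2%), 118 higher in chronic (0.941%) and 33 lower (0.263%), and the median log2 fold change was -0.01. Both comparisons use the same chronic libraries. At an unadjusted p under 0.05 there were 1971 genes, against 3357 for chronic and control. The count of calls was fragile: it was 17 without remission replicate 3, 50 without chronic replicate 3, 65 without remission replicate 1, 270 and 272 without chronic replicates 2 and 1, and 283 without remission replicate 2, and 4 genes passed against a 1.5-fold change, among them Ripk4, Cxcl13 and Mcm6 of those named here. Among the remission libraries, replicate 3 had 0 counts of the Y-linked genes Ddx3y, Uty, Kdm5d and Eif2s3y, which the other 11 libraries all held. These genes and the female transcript Xist together summed to 1999 CPM in remission replicate 3, all of it Xist. The sum was 133 and 150 CPM in the other remission libraries and 121 to 149 CPM in chronic ones. By these transcripts remission replicate 3 was female, though the labels give no sex. The effect of sex on this comparison was not tested. Oligodendrocyte markers summed to 743 CPM in remission replicate 1, against 75.9 and 151 CPM in the other remission libraries. Damage-associated genes had 0 calls and a median of 0.23 in this comparison, and of the homeostatic genes 1 was called, Slc2a5, a fructose transporter, higher in chronic. Ripk4 stood at 0.554, 0.957 and 0 CPM in remission and 24.7, 17.6 and 8.93 CPM in chronic libraries (log2 fold change 4.90 ± 0.58 SE, adjusted p 0.000596), and Cxcl13 at 2.21, 4.02 and 3.19 CPM in remission and 26.1, 17.5 and 18.4 CPM in chronic libraries (log2 fold change 2.71 ± 0.32 SE, adjusted p 0.000596). These 2 of the 44 named genes called here kept their call under every alternative run. Irf1 stood at 37.8, 45.9 and 40.1 CPM in remission and 62, 99.2 and 123 CPM in chronic libraries (log2 fold change 1.20 ± 0.19 SE, adjusted p 0.00531), and Irgm1 at 30.6, 30.6 and 36.4 CPM in remission and 59.2, 72.7 and 119 CPM in chronic libraries (log2 fold change 1.36 ± 0.19 SE, adjusted p 0.00251). For both the chronic libraries lay above the remission libraries without overlap. The call of Irf1 ended with only the 6 libraries compared, and its adjusted p ran from 1.12e-12 to 0.128 over the alternatives.

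C4b stood at 263, 248 and 317 CPM in remission and 676, 670.4 and 927 CPM in chronic libraries (log2 fold change 1.46 ± 0.25 SE, adjusted p 0.0217), and Msr1, the macrophage scavenger receptor, at 3.51, 6.31 and 4.25 CPM in remission and 27, 19.3 and 40.8 CPM in chronic libraries (log2 fold change 2.6 ± 0.50 SE, adjusted p 0.0427). Both were higher in each chronic library than in any of remission. The call of C4b ended without remission replicates 1 or 3 or chronic replicate 3 (adjusted p 0.072 to 0.0909), and its adjusted p ran from 2.13e-07 to 0.149 over the alternatives. The call of Msr1 ended with library totals alone, with the title digit as a covariate and without remission replicates 1 or 3 or chronic replicates 1 or 3 (adjusted p 0.0634 to 0.136), and its adjusted p ran from 0.00294 to 0.169 over the alternatives. The largest differences included the cell cycle genes Cenpf, Uhrf1, Mcm6 and Pole, with log2 fold changes of 4.55, 4.51, 3.02 and 2.83, and Htra3, a secreted protease (3.17). In all 4 cell cycle genes chronic replicate 3 was the highest of its group. The call of Cenpf ended with the title digit as a covariate, with only the 6 libraries compared, by limma-voom and without remission replicates 1, 2 or 3 (adjusted p 0.069 to 0.125), and its adjusted p ran from 3.07e-14 to 0.238 over the alternatives. The call of Uhrf1 ended with only the 6 libraries compared, by limma-voom, without remission replicate 1 (adjusted p 0.0742) and without remission replicate 3 (adjusted p 0.115), and its adjusted p ran from 1.98e-17 to 0.209 over the alternatives. The call of Mcm6 ended by limma-voom, and its adjusted p ran from 6.87e-13 to 0.0504 over the alternatives. The call of Pole ended with only the 6 libraries compared, by limma-voom and without remission replicates 1, 2 or 3 or chronic replicate 3 (adjusted p 0.0538 to 0.12), and its adjusted p ran from 1.29e-08 to 0.206 over the alternatives. The call of Htra3 ended with only the 6 libraries compared, by limma-voom and without remission replicate 3 (adjusted p 0.0877), and its adjusted p ran from 1.08e-15 to 0.118 over the alternatives. The named decreases were smaller. Asb2, a ubiquitin ligase adaptor, stood at 31.2, 23.7 and 44.1 CPM in remission and 14.1, 16.7 and 16.8 CPM in chronic libraries (log2 fold change -1.04 ± 0.23 SE, adjusted p 0.0279). Sncaip (-1.22), Arhgef10l (-1.16), Slc5a3 (-1.09) and Cd300a (-1.03) were also lower. These 5 lost their call without remission replicates 1 or 3 or chronic replicates 1 or 3 (adjusted p 0.0546 to 0.186). They also lost it with only the 6 libraries compared, by limma-voom and against 1.5-fold. Sncaip, Arhgef10l and Slc5a3 lost it with the title digit as a covariate as well.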

How the data were processed

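RNA of sorted spinal cord microglia was measured in 12 libraries, 3 in each group. The authors deposited raw read counts per Ensembl gene, as a table of all libraries and as 12 single files that held the same values. The submitters' processing notes name HISAT2, SAMtools 1.3.1, Picard 2.6.4, HTSeq 0.6.1 and GRCm38 with no order of steps. Whether counting used strand, and how reads of several genes were treated, is not given in the sources used here. Symbols and positions came from GENCODE M21, which held 48144 of 48526 IDs, and the other 382 took 0.02078% of the counts. Promoters came from RefSeq on GRCm38.p6.

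Genes were filtered with filterByExpr, scaled by TMM and fitted over all 12 libraries and 4 groups with edgeR 4.0.16 (robust quasi-likelihood, R 4.3.3), with Benjamini-Hochberg adjustment over all genes tested. SE is the absolute log2 fold change divided by the square root of F. Levels in CPM used the TMM-scaled library sizes. limma 3.58.1 (voom) and DESeq2 1.42.0 were alternatives. Others were DESeq2 size factors, library totals alone, no or a stricter filter, the 6 libraries compared alone, a digit in the sample titles as a covariate, a test against 1.5-fold, the 6 most abundant features and mitochondrial genes left out, and each library left out in turn. Tested on simulated data for chronic against control (11337 genes), the fit called 8% of genes changed by 1.5-fold, 66% at 2-fold, 90% at 4-fold and 90% at 8-fold, and 7 of its 134 calls were unchanged genes. Counting intervals cover counting error only.

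The groups and the 43 gene lists were chosen with earlier results of these data known. Genes were named by rule: the genes of the sort, in each direction the 10 or fewer largest changes between chronic and control microglia and the 6 or fewer largest between chronic and remission (called, at least 10 CPM in the higher group, groups not overlapping, predicted and mitochondrial genes left out), up to 4 members of each list with the smallest p, the 4 most abundant of each cell cycle list in the library where that list was highest, and the 8 genes that varied most among chronic libraries. Other genes named were chosen after their values were seen. A few genes are not reported here by name and remain in the counts of their lists.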

Additional observations from a re-analysis of the deposited data

Results flagged for a closer look

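Among all members of the gene lists and the genes named by rule, 44 differed between chronic and remission microglia. The test was edgeR's quasi-likelihood test (adjusted p under 0.05), so their change from control differed between the 2 phases. Some were named because this comparison called them. Their number is therefore no share to set against the 1.2% called among all genes tested. All values are chronic minus remission log2 fold changes. Genes of replication and mitosis were higher in chronic microglia: Ccnb1 by 5.93, Cenpf by 4.55, Uhrf1 by 4.51, Cdca8 by 4.38, Birc5 by 4.13, Kif11 by 4.04, Tpx2 by 3.85, Cenpe by 3.32, Mcm6 by 3.02, Bub1b by 2.90, Pole by 2.83, Ccna2 by 2.43, Racgap1 by 2.12 and Mcm5 by 1.51. Without chronic replicate 3, 11 of the 14 lost their call, namely Ccnb1 (4.58), Tpx2 (3.05), Birc5 (3.11), Cdca8 (2.99), Kif11 (2.86), Cenpe (2.17), Pole (1.74), Bub1b (1.71), Ccna2 (1.61), Racgap1 (1.15) and Mcm5 (0.99), with adjusted p of 0.0738 to 0.213 (edgeR). Genes of the interferon response and of antigen presentation were higher as well, with Irgm1 at 1.36, Irf1 at 1.20, Irgm2 at 1.05, H2-DMb2 at 1.0, Psme2 at 0.99, H2-DMa at 0.95, Nlrc5 at 0.89, Psme1 at 0.85 and Psmb9 at 0.76. Among complement, receptor and secreted factor genes, Htra3 differed by 3.17, Cxcl13 by 2.71, the scavenger receptor Msr1 by 2.6, ceruloplasmin (Cp) by 1.86, Flt1 by 1.58, C4b by 1.46, C5ar1 by 1.45 and Fcer1g by 0.54. Metabolic and lysosomal genes that were higher were the fructose transporter Slc2a5 (1.95), Ldha (0.96), Pkm (0.87), Acaca (0.78), Eno1 (0.66) and Gusb (0.65). The kinase gene Ripk4 was higher by 4.90. Lower in chronic microglia were Sncaip at -1.22, Arhgef10l at -1.16, Slc5a3 at -1.09, Asb2 at -1.04, Cd300a at -1.03 and Maf at -0.75. Of the 44 calls, 8 remained without remission replicate 3, 14 without chronic replicate 3 and 18 without remission replicate 1. Only Ripk4 and Cxcl13 of these 44 kept their call under every alternative run.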

How the results depend on the processing

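Between chronic and control microglia the number of genes called moved beyond 1.5 times with library totals alone (3241 called, 703 higher, 2538 lower) and against 1.5-fold (680 called, 525 higher, 155 lower). Leaving out each library in turn gave 1216 to 1739 calls, 832 to 1154 higher and 384 to 585 lower. The other settings gave 1726 to 2112 calls and kept 85.2% to 99.7% of the genes called. Between chronic and remission microglia the count moved with no filter (828 called, 484 higher, 344 lower), by DESeq2 (385, 277 and 108), by limma-voom (48, 41 and 7), with the 6 libraries compared alone (26, 23 and 3) and against 1.5-fold (4, 4 and 0). With library totals alone 54 were lower. Leaving out each library in turn gave 17 to 283 calls, 15 to 238 higher and 2 to 163 lower, with 17 without remission replicate 3, 50 without chronic replicate 3, 65 without remission replicate 1 and 283 without remission replicate 2. No named call turned its direction under any alternative run. Where a group is left with 2 libraries, fewer samples are tested; otherwise the cause was not tested. No paired analysis was possible because the labels give the groups no shared replicate numbers. The 1491413 to 2496096 counts left for nuclear genes limit what can be shown for genes near 0.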

Other observations

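Of 20 immediate early genes tested between chronic and control microglia, 3 rose and none fell (median log2 fold change 0.04). This number was near the 9.57% higher among all genes tested. Nr4a1, a nuclear receptor induced by stimulation, stood at 0.142, 0.701 and 0.216 CPM in control and 7.49, 3.6 and 2.81 CPM in chronic libraries (log2 fold change 3.64 ± 0.59 SE, adjusted p 0.000184, edgeR). Atf3, a stress-induced transcription factor, stood at 4.55, 4.21 and 6.91 CPM and 13.2, 23.8 and 11 CPM (1.65 ± 0.32 SE, adjusted p 0.00128, edgeR). Klf4 was the other gene that rose. The most abundant members, such as Jun, Junb and Zfp36, were not called. Among 15 heat shock genes tested Dnaja1, a co-chaperone, was the only one called, lower by edgeR at a log2 fold change of -0.62 ± 0.17 SE (adjusted p 0.0156), and its call ended against 1.5-fold and without control replicate 1 or chronic replicate 1. None of 4 Y-linked genes tested was called between chronic and control microglia, and all chronic and control libraries held them.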
